A study of Homo sapiens with 2 samples.

Results

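The genes described here were the protein-coding rows of the deposited RNA table whose names begin with ZNF, ZSCAN, ZKSCAN, ZBTB, ZFP, KLF or GLI. There were 28 such genes among 1415 rows, of which 798 were protein-coding. The RNA came from A549, an established human lung adenocarcinoma line, in its unmodified state (control) and after knockout of NAT10, the enzyme that places N4-acetylcytidine (ac4C) on RNA. The knockout was made with Cas9 and 2 guide RNAs and was grown from a single-cell clone, so it stands for 1 clone. Each group had 1 library, with no replicate, so no difference carries a test between conditions. The labels name no treatment for either group.

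The table held only genes that the authors had selected for a change of over 2-fold between these same libraries. Every row also had a p-value under 0.05 in the authors' own comparison. In a listed gene, a difference of that size or an interval that excludes no change is therefore no result in itself. What follows describes the levels, the reads behind them and the directions of the genes that were listed. Whole reads were recovered from the values, on effective library sizes of 6077933 (control) and 5474964 (knockout). Each interval of a log2 ratio below is a 95% exact (Clopper-Pearson) interval for counting error only. A log2 ratio is knockout over control. The NAT10 transcript was not analysed here, and the knockout label therefore rests on the study's description. Of 12 marker genes of A549 and lung epithelium only CDH1 had a row, so the identity of the cells was not checked either. In bulk RNA, fewer cells expressing a gene and less RNA per cell cannot be told apart.

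Proteins of the C2H2 type fold a short stretch of residues around a zinc ion, held by a pair of cysteines and a pair of histidines, and a row of such fingers reads a DNA sequence. The largest group in the human genome also carries a KRAB box, which recruits the corepressor TRIM28 and, through it, enzymes that make silent chromatin, often over transposable elements. KRAB genes lie in tandem clusters, above all on chromosome 19. Members with a BTB domain (ZBTB) or a SCAN domain pair with each other, whereas the KLF and GLI factors are activators and repressors in growth, differentiation and hedgehog signalling.

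To show the spacing that was searched, the first stretch of each protein that matched 2, 12 and 3 residues is printed. The genes are the 3 members with no knockout reads (ZNF426, ZNF311 and ZNF808) and the 3 with the highest read ratios (ZNF607, ZNF582 and ZNF547). A match rests on spacing alone, and whether each stretch forms a finger was not tested. Each stretch is 63 bases of coding sequence from GENCODE release 29 (GRCh38), 5′ to 3′ on the coding strand. The capitals mark the codons of the 2 cysteines and the 2 histidines.
ZNF426 (chr19:9529307-9529369, minus strand): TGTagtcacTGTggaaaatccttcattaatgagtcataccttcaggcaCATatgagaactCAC
ZNF311 (chr6:28996195-28996257, minus strand): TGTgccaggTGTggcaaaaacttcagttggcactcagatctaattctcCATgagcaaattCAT
ZNF808 (chr19:52553697-52553759, plus strand): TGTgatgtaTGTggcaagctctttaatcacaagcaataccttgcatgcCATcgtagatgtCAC
ZNF607 (chr19:37699723-37699785, minus strand): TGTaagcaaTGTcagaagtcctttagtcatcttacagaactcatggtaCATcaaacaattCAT
ZNF582 (chr19:56384754-56384816, minus strand): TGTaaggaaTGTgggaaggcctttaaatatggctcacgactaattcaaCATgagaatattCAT
ZNF547 (chr19:57377241-57377303, plus strand): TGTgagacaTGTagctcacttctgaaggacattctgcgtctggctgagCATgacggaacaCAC

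By prefix, the members were 25 ZNF genes, 2 ZBTB genes (ZBTB22 and ZBTB48) and 1 GLI name, GLIPR1L1. GLIPR1L1 met the rule by its letters alone: it encodes a secreted protein of the CAP family, and its translated sequence held 0 matches of the finger pattern. ZNF703, a corepressor known from luminal breast cancer, also held 0 matches. The other 26 members held between 2 and 29 matches. None of the 21 ZSCAN, 7 ZKSCAN, 25 ZFP and 18 KLF genes of the annotation had a row. In all, 28 of the 639 annotated genes with these prefixes were listed (4.38%), beside 798 of all 19951 protein-coding genes (4.0%). A KRAB box pattern was found in 17 of the 28 members (60.7%), and in 283 of the 639 annotated genes (44.3%). Of those 283 genes 17 were listed, or 6.01%.

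Most of the listed genes with these prefixes were lower in the knockout. There were 21 lower and 7 higher members, so 75.0% were lower, with an interval from 55.1% to 89.3%. The 26 members with at least 2 finger matches were split 19 lower to 7 higher. Here and below, zinc finger genes stands for all 28 members, with GLIPR1L1 and ZNF703 included. Over all 798 listed protein-coding genes 61.4% were lower and 38.6% were higher, and the first of these shares lies inside the interval of the zinc finger genes. The 28 genes together had 737 control and 404 knockout reads, a log2 ratio of -0.72 (interval -0.90 to -0.54). ZNF703 alone gave 168 of the control reads, and without it the sums were 569 and 340, a log2 ratio of -0.59 (interval -0.79 to -0.40). All 1343 listed genes with whole reads, of every gene type, had sums of 57940 and 37093, a log2 ratio of -0.49. The intervals of the sums pool the reads of different genes and leave out the spread between genes. In the 25 members with reads in both libraries the log2 ratios ran from -2.66 to 2.15. The sums therefore cannot tell whether the members differ from the other listed genes. The median difference in log2(RPKM + 1) was -0.47 over the members and -0.32 over the listed protein-coding genes. This gap depended on the added value: with 0.1 in place of 1 the medians were -1.06 and -1.02. RPKM is the number of reads scaled to gene length and library size, and adding 1 to it understates the change of low genes.

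**Figure D1:**
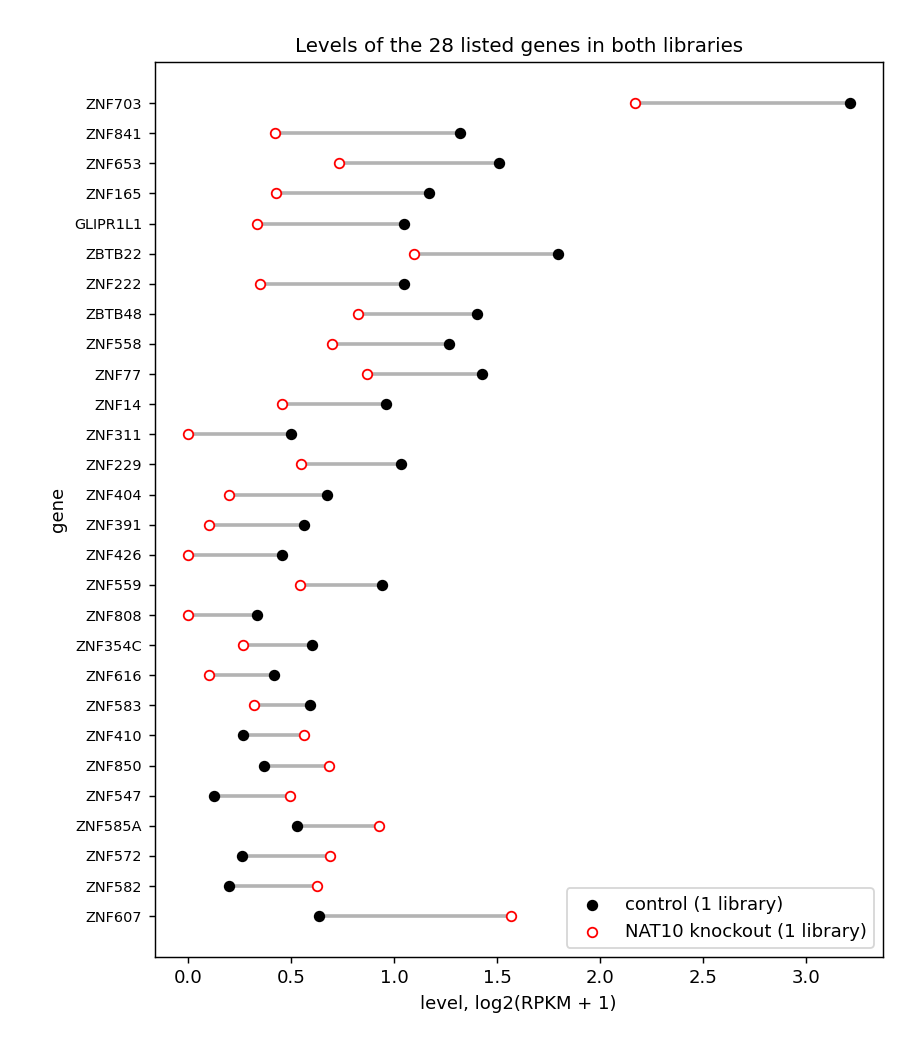
Level of each of the 28 genes as log2(RPKM + 1) in the control library (filled) and the NAT10 knockout library (open), joined by a grey line, with 1 library per group. ZNF703 has the highest level in both libraries, 21 genes have the open point on the left and 7 genes, from ZNF410 to ZNF607, have it on the right.

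These were genes of low abundance. The mean RPKM over both libraries ran from 0.131 to 5.87 with a median of 0.663, beside a median of 0.621 over all listed protein-coding genes. The median member had 24 reads in both libraries together, and 11 of the 28 had fewer than 20. Among genes with whole reads the median was 31 over the listed protein-coding genes and 19 over all listed genes. A drop or rise of more than 2-fold on the log2(RPKM + 1) scale was reached by 1 member, and only in the lower direction. It was ZNF703, which held 0 finger matches. Over the listed protein-coding genes the same limit was passed by 12.2% as lower and by 4.64% as higher. The counting interval excluded no change in 17 of the 28 members (60.7%), 14 of them lower and 3 higher. Over the 745 listed protein-coding genes with whole reads it did so in 603. Of all 745, 49.3% were such lower genes and 31.7% such higher genes, so the share was smaller among the members. For 2 members, ZNF426 and ZNF841, the whole interval lay beyond a 2-fold change.

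All-or-none values were found in 3 members, which had control reads but an RPKM of 0 after knockout, and 10.3% of the listed protein-coding genes were of this kind. No member had an RPKM of 0 in the control, beside 4.01% of the listed protein-coding genes. ZNF426 (ENSG00000130818, chr19:9523224-9538645, minus strand), a KRAB gene with 11 fingers, had 17 control reads (0.371 RPKM) and 0 knockout reads, and was at least 5.10-fold lower against a floor of 3 reads in the knockout library. That fold treats the 17 reads as known without error, and with counting error the log2 ratio was -1.89 or lower. ZNF311 (ENSG00000197935, chr6:28994785-29005316, minus strand), a KRAB gene with 14 fingers beside the major histocompatibility complex, had 8 control reads (0.414 RPKM) and 0 knockout reads. ZNF808 (ENSG00000198482, chr19:52527652-52564464, plus strand), a KRAB gene with 23 fingers that is known from development of the pancreas, also had 8 control reads (0.263 RPKM) and 0 in the knockout. Both were at least 2.40-fold lower against the floor, and with counting error their log2 ratio was -0.62 or lower. Of the exon bases of ZNF808, 17.3% also belong to ZNF701 or RPL39P34 on the same strand, so its reads could be split between genes in the authors' counting. ZNF426 and ZNF311 share no exon bases with another gene.

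The member with the most reads was ZNF703 (ENSG00000183779, chromosome 8, 37695751 to 37700021, plus strand). It had 168 control reads (8.25 RPKM) and 64 knockout reads (3.49 RPKM), a log2 ratio of -1.24 (interval -1.68 to -0.82). Its level was the highest of the 28 genes in both libraries. The next 3 lower members without a KRAB box match were ZBTB22, ZNF653 and ZBTB48. ZBTB22, a BTB domain gene (ENSG00000236104, chr6:33314406-33317942) had 41 and 17 reads, or 2.47 and 1.14 RPKM. ZNF653 (ENSG00000161914, chr19:11483427-11505923), which encodes a repressor, had 37 and 12 reads, or 1.84 and 0.664 RPKM. ZBTB48 (ENSG00000204859, chr1:6580001-6589280) encodes TZAP, a protein that binds telomere repeats and limits telomere length. It had 45 and 19 reads, or 1.64 and 0.771 RPKM. Their log2 ratios were -1.12 for ZBTB22 (interval -2.03 to -0.27), -1.47 for ZNF653 (interval -2.55 to -0.50) and -1.09 for ZBTB48 (interval -1.95 to -0.29). Each interval excluded no change and each included a 2-fold drop.

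ZNF165 (ENSG00000197279, chr6:28080975-28089563), a SCAN domain gene and a cancer-testis antigen, had 16 control reads (1.25 RPKM) and 4 knockout reads (0.347 RPKM), a log2 ratio of -1.85 (interval -3.89 to -0.22). ZNF391 (chromosome 6) had 14 and 2 reads, with an interval from -5.84 to -0.53. ZNF229 had 35 and 14 reads (interval -2.18 to -0.24), and ZNF222 had 13 and 3 reads, or 1.07 and 0.274 RPKM, a log2 ratio of -1.96 (interval -4.42 to -0.10). These 4 genes also had no match of the KRAB pattern in the sequence used, which does not show that the protein lacks the box. GLIPR1L1 (ENSG00000173401, chr12:75334639-75370560) had 9 and 2 reads, or 1.07 and 0.264 RPKM, a log2 ratio of -2.02, and its interval, from -5.27 to 0.25, included no change.

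Among the lower members with a KRAB box match, ZNF841 stood on 39 control reads (1.5 RPKM) and 8 knockout reads (0.341 RPKM), a log2 ratio of -2.13 (interval -3.44 to -1.02). ZNF558 (ENSG00000167785, chr19:8806170-8832328) had more reads than any other KRAB member, 70 in the control (1.41 RPKM) and 28 in the knockout (0.625 RPKM), a log2 ratio of -1.17 (interval -1.86 to -0.52). ZNF559 had 38 and 17 reads, with an interval from -1.93 to -0.15. For the other 6 the interval included no change. ZNF77 had 25 and 11 reads, or 1.69 and 0.824 RPKM, a log2 ratio of -1.03 (interval -2.20 to 0.04). ZNF14 had 17 and 6 reads, or 0.948 and 0.372 RPKM, a log2 ratio of -1.35 (interval -2.98 to 0.06). ZNF583 had 25 and 11 reads, ZNF354C had 17 and 6 reads, ZNF616 had 10 and 2 reads, and ZNF404 had 9 and 2 reads. All of these 6 were nonetheless rows of the authors' selected table.

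The 7 higher members had control levels between 0.0922 and 0.555 RPKM, with a median of 0.203. Low control levels follow in part from the sorting by direction, and the lower members had a median of 0.341 RPKM in the knockout. ZNF607 (ENSG00000198182, chr19:37696363-37719790, minus strand), a KRAB gene with 18 fingers, had 16 control reads (0.555 RPKM) and 51 knockout reads (1.97 RPKM), a log2 ratio of 1.82 (interval 0.99 to 2.73). ZNF585A (ENSG00000196967, chr19:37106734-37172741), a KRAB gene with 21 fingers, had 29 and 53 reads, or 0.444 and 0.900 RPKM, a log2 ratio of 1.02 (interval 0.34 to 1.73). ZNF850 (ENSG00000267041, chr19:36714383-36772825), with 29 fingers the longest array of the 28, had 14 and 26 reads, or 0.293 and 0.605 RPKM, a log2 ratio of 1.04 (interval 0.05 to 2.09). In the next 4 the interval included no change. ZNF582, whose promoter methylation is used as a marker in cervical cancer, had 3 and 10 reads, or 0.147 and 0.545 RPKM, a log2 ratio of 1.89 (interval -0.07 to 4.39). ZNF547 had 2 and 8 reads, or 0.0922 and 0.410 RPKM, a log2 ratio of 2.15 (interval -0.17 to 5.42). ZNF572 had 4 and 11 reads, or 0.201 and 0.613 RPKM, a log2 ratio of 1.61 (interval -0.14 to 3.72). ZNF410, which is known as an activator of the chromatin remodeler gene CHD4, had 8 and 17 reads, or 0.203 and 0.479 RPKM, a log2 ratio of 1.24 (interval -0.05 to 2.66). ZNF410 shares 42.2% of its exon bases with other genes on its strand, PTGR2 and AC005520.1, and ZNF585A shares 17.3% of its 50-base words with other genes, ZNF585B first among them, so their reads are uncertain. ZNF607 shares 12.5% of its exon bases with AC093227.2. Shared exon bases were found in 16 of the 28 members (12 lower, 4 higher), among them ZNF404 (17.6%), ZNF222 (17.2%), ZNF653 (14.5%) and ZNF559 (12.9%), and the same limit applies to each of them.

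**Figure D2:**
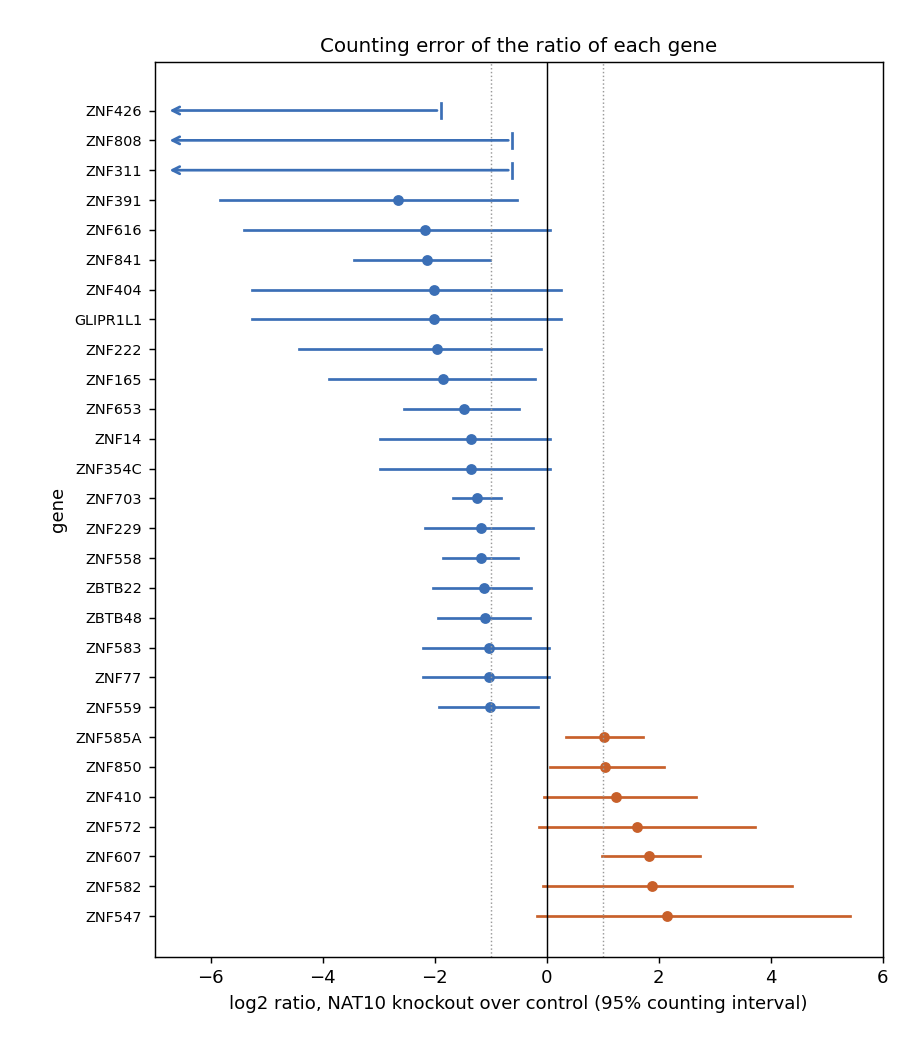
Log2 ratio of the NAT10 knockout library over the control library for each of the 28 genes (points) with its 95% counting interval (lines), in blue where lower and in orange where higher. Arrows mark the 3 genes with 0 knockout reads, for which the interval has no lower limit, dotted lines mark a 2-fold change, and only the intervals of ZNF426 and ZNF841 lie wholly beyond it.

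Of the 28 genes, 18 lay on chromosome 19 (64.3%), beside 267 of the 639 annotated genes with these prefixes (41.8%). On chromosome 19 there were 13 lower and 5 higher members. The 46 other listed protein-coding genes of chromosome 19 were split 35 to 11, or 76.1% lower, beside 72.2% of the zinc finger genes there. All 4 members on chromosome 6 were lower, as were 41 of the 54 other listed protein-coding genes of that chromosome (75.9%). On both chromosomes, then, the other listed genes were mostly lower too.

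**Figure D3:**
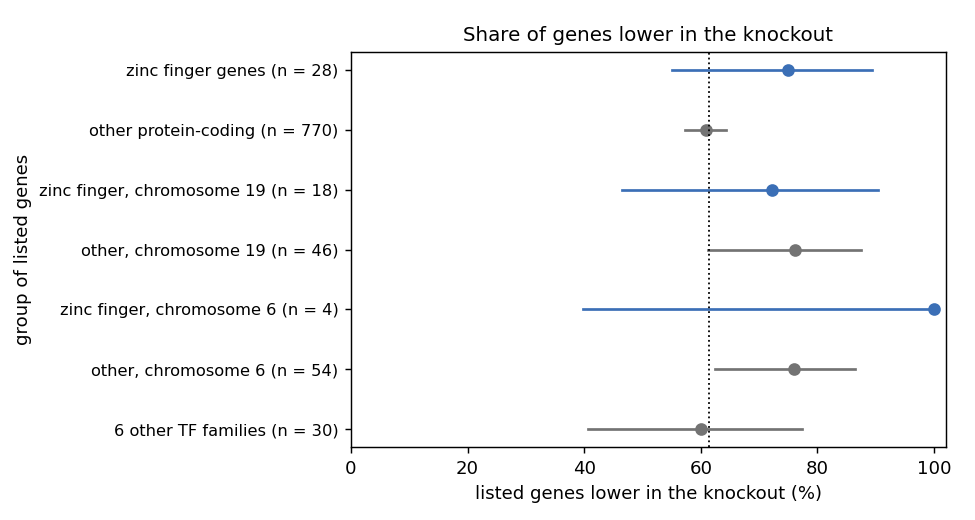
Percentage of listed genes that were lower in the knockout, with exact 95% binomial intervals, for the zinc finger genes (blue) and other listed protein-coding genes (grey), n being the number of genes. The interval of the 28 zinc finger genes contains the 61.4% of all listed protein-coding genes (dotted line), and genes of 1 group are not independent samples.

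When neighbouring members no more than 1000000 bases apart were joined, 6 groups of 3 were formed, a grouping made after the directions had been seen. With 21 of the 28 members lower, a group of 3 lower members is no result in itself. ZNF558, ZNF559 and ZNF426 (chr19:8806170-9538645) were all lower, and their reads went from 125 to 45 in total. ZNF404, ZNF222 and ZNF229 (chr19:43872363-44448578) were all lower as well, with 57 and 19 reads. ZNF841, ZNF616 and ZNF808 (chr19:52064466-52564464) made another lower group on that chromosome, with 57 and 10 reads. On chromosome 6, ZNF391, ZNF165 and ZNF311 (chr6:27374615-29005316) were lower, with 38 and 6 reads.

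In contrast, ZNF850, ZNF585A and ZNF607 (chr19:36714383-37719790) were all higher, with 59 control and 130 knockout reads. The last group was mixed: ZNF582 and ZNF547 were higher and ZNF583 was lower, with 30 and 29 reads in total (chr19:56375846-57379565). ZNF582 and ZNF583 are neighbours on opposite strands, and for both of them the interval included no change. The spans held between 9 and 19 annotated genes with these prefixes, of which 3 were listed in each, so most genes of every cluster had no row. Few other listed genes lay inside the spans: MUC16 beside ZNF558, with 20 and 1 reads, and on chromosome 6 the histone genes HIST1H1B (613 and 0 reads) and HIST1H4K (63 and 27 reads) and the pseudogene TOB2P1 (1 and 6 reads). Whether a change of the region or of single genes lies behind a group was not tested.

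The proteins of lower and higher members overlapped in their build. The median number of fingers was 11 in the lower members (range 0 to 23) and 12 in the higher members (range 5 to 29), beside 9 over the 639 annotated genes. A KRAB box match was found in 12 of 21 lower and 5 of 7 higher members. These numbers are a description, with no test.

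In mRNA, ac4C has been described at repeats of a C followed by any 2 bases, so the coding sequences were searched for 4 such units in a row, CNNCNNCNNCNN, on the coding strand in any frame, with overlapping matches counted. The zinc finger genes were poor in this repeat. The median was 2.41 per kilobase of coding sequence in the lower members and 1.26 in the higher members, beside 2.47 in all annotated genes with these prefixes, whereas all annotated protein-coding genes had a median of 9.17. In 4 members (ZNF14, ZNF426, ZNF607 and ZNF616) there was no match. A match is a run of letters and not a measured ac4C site, and ac4C was not measured in these libraries. Among the members ZNF703 was far apart, with 115 matches (65.0 per kilobase) and a coding GC content of 72.4%, beside a median of 42.3% over the 28 genes.

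The longest run of such units within an exon is printed for ZBTB22 (27.9 per kilobase), ZNF653 (16.3 per kilobase) and ZBTB48 (11.1 per kilobase). These 3 members followed ZNF703 in repeat density and were lower in the knockout, as were 21 of all 28 members. Next in density were ZNF850 (9.17 per kilobase, higher), ZNF229 (7.27 per kilobase, lower) and ZNF410 (7.11 per kilobase, higher). The median over the listed protein-coding genes was above that of all annotated ones and close to the value of ZBTB48. Whether repeat density goes with direction was not tested. The sequences are from GENCODE release 29 (GRCh38) coding sequence, 5′ to 3′, with the first C of each unit in capitals.
ZBTB22 (chr6:33316282-33316308, minus strand): CagCagCagCaaCtaCttCagCccCag
ZNF653 (chr19:11487778-11487810, minus strand): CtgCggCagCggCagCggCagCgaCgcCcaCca
ZBTB48 (chr1:6588087-6588107, plus strand): CtgCagCcaCgcCttCacCca

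**Figure D4:**
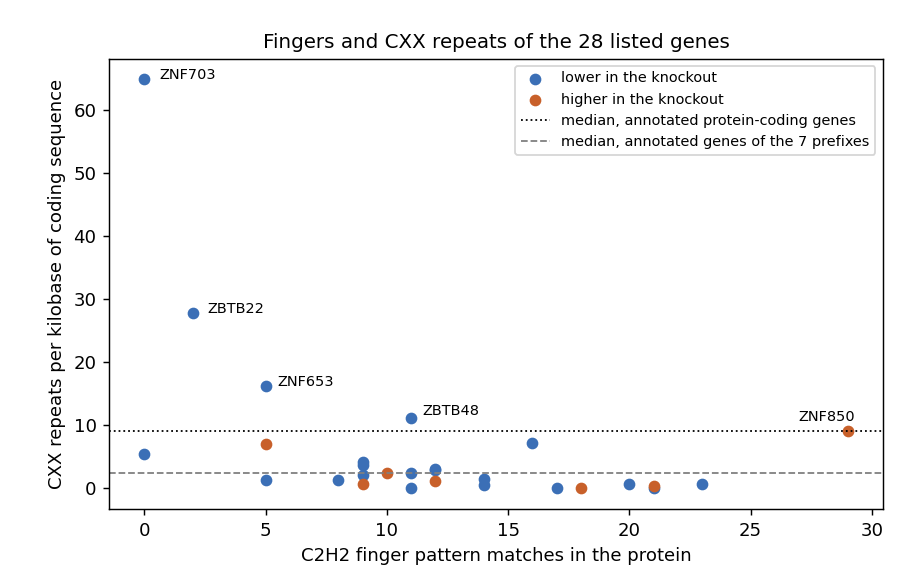
Number of C2H2 finger pattern matches in the translated protein (horizontal axis) against CNN repeats of 4 units per kilobase of coding sequence (vertical axis) for the 28 genes, in blue where lower and in orange where higher in the knockout. ZNF703, ZBTB22, ZNF653 and ZBTB48 lie above the median of all annotated protein-coding genes (dotted line, 9.17), ZNF850 lies on it, and most of the others lie near the median of the annotated genes with these prefixes (dashed line, 2.47).

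Promoter windows from 250 bases before to 50 after the start (RefSeq, GRCh38.p14) were matched by symbol for 24 of the 28 genes, with the first window where a gene had several. They were rich in CpG, as those of the family are: the median was 21 CpG in 18 lower members and 26.5 in 6 higher members, beside 22 in 530 genes with these prefixes and 14 in 27305 promoters. The GC box GGGCGG, read on both strands and known as a site of SP and KLF factors, was in 10 of 18 lower (55.6%) and 2 of 6 higher (33.3%) windows, beside 64.5% of the 530 and 44.6% of all promoters. TATAAA on either strand was in 0 of the 24, beside 3.02% of the 530 and 12% of all promoters. The windows of ZNF426 and ZNF808, which had no knockout reads, and of ZNF582, which was higher, are printed 5′ to 3′ with each CpG in capitals.
ZNF426 (chr19:9538596-9538895, minus strand): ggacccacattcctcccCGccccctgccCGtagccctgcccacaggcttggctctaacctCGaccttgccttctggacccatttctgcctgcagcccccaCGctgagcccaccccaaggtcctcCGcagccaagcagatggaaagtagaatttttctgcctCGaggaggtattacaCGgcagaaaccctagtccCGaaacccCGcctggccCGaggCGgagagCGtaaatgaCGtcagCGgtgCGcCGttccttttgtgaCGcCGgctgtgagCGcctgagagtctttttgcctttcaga
ZNF808 (chr19:52527418-52527717, plus strand): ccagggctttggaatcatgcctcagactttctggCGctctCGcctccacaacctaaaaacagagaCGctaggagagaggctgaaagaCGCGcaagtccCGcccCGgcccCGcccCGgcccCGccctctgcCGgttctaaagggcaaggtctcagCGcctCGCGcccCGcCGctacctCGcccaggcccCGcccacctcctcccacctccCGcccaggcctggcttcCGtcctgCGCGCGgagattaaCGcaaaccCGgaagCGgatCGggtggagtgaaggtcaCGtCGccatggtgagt
ZNF582 (chr19:56393485-56393784, minus strand): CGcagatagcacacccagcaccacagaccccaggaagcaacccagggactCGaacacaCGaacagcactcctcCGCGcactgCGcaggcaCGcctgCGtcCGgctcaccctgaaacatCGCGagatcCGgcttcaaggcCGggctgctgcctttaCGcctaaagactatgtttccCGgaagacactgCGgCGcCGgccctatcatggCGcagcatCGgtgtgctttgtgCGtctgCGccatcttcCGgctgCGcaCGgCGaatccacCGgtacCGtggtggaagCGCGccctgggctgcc
They held 19, 29 and 30 CpG in that order.

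Genes that act with these factors were looked at next. Of 19 genes of the KRAB repressor complex, TRIM28 and its partners with the KRAB genes ZNF91 and ZNF93, 0 had a row, and of 20 genes of the hedgehog pathway 0 had a row. Only 4.0% of all protein-coding genes were listed, so the lack of a row in lists this short does not show that these genes were unchanged. Of 27 KLF and SP genes 3 were listed, all of them SP genes and all lower, with a median of -0.74 in log2(RPKM + 1). SP9 had 61 and 12 reads, SP6 had 24 and 4 reads, and SP7, which drives bone formation, had 6 and 0 reads. Of 68 other zinc finger regulators outside the prefixes 4 were listed. GATA2, a factor of blood and endothelial lineages, was higher with 26 and 100 reads (interval of the log2 ratio 1.46 to 2.78). ZEB2, a repressor of epithelial genes, was higher too, with 0.119 and 0.534 RPKM. GATA3 was lower, with 3.64 and 1.74 RPKM, and SALL1 was lower with 26 and 8 reads. Whole reads were not recovered for ZEB2 and GATA3.

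Other families of transcription factors served as the most similar parts of the table. Of 467 genes in 6 families 30 were listed (18 lower, 12 higher), so 60% were lower, beside 75.0% of the zinc finger genes. The binomial intervals overlapped (40.6% to 77.3% and 55.1% to 89.3%), with genes again treated as independent samples. Their median difference was -0.46 in log2(RPKM + 1), beside -0.47 for the zinc finger genes. The homeobox genes were split 6 to 6. There were 2 lower and 1 higher basic helix-loop-helix genes, 1 lower basic leucine zipper gene, 2 lower and 2 higher forkhead and SOX genes, 3 lower and 2 higher nuclear receptors, and 4 lower and 1 higher among the ETS, STAT, IRF and related families. The zinc finger genes rested on fewer reads than these, with a median of 24 beside 44 over both libraries. The median over the listed protein-coding genes lay between them, at 31.

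The prefixes also began 3 rows that were of other gene types and no members. The antisense RNA ZNF503-AS2 had 48 control and 17 knockout reads. GLIS2-AS1, a long intergenic RNA in the annotation, had 0 and 9 reads and was at least 3.33-fold higher against a floor of 3 control reads, its own reads being taken as known, and with counting error the log2 ratio was 1.13 or higher. The pseudogene ZNF587P1 had 0 and 6 reads and was at least 2.22-fold higher on the same terms, and with counting error the log2 ratio was 0.39 or higher. Whether the reads of ZNF587P1 come from another gene of similar sequence was not tested.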

How the data were processed

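For A549 control cells and 1 NAT10 knockout clone, total RNA was made into libraries with a SMARTer mRNA kit, with 1 library per group (2 samples). The genome build was hg38 per the labels; the aligner, annotation, counter and strand setting are not given in the sources used here. The authors deposited RPKM per gene and library for selected genes. The authors also deposited their own log2 fold change, p-value and adjusted value for each gene. The first 2 were read only to check the selection: all 1415 rows had a log2 fold change beyond 1 and a p-value under 0.05. Their values are not used here.

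RPKM were multiplied by the exon length of each gene (GENCODE release 29, GRCh38), and the library size that made the low values whole was sought. Reads were whole (within 0.02 of a read, or a slightly wider margin for the highest counts) in both libraries for 1343 of 1408 genes with a length (95.4%) and for all 28 members. The recovery and the intervals were tested on simulated data. Differences are log2(RPKM + 1), knockout minus control. Intervals of log2 ratios and floors (3 reads) cover counting error only, since reads carry no molecular identifiers. Intervals of shares are binomial and treat genes as independent samples. No test was run, since each group had 1 library. The plan named RefSeq proteins for the finger count; translated GENCODE coding sequences, the longest per gene, were used instead. Python 3.11.15, numpy 2.4.6, scipy 1.17.1 and biopython 1.88 were used.

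The members and lists were chosen with earlier results of these data known. The genes given with full values were all members outside the prefix ZNF, the members at 0 in a library, and among the others the 8 lowest and up to 8 highest differences. The remaining members are given by reads, some with their interval. The alternatives were other pseudocounts, minimum levels and reads, definitions of the family and finger patterns.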

Additional observations from a re-analysis of the deposited data

How the results depend on the processing

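No paired analysis was possible because each group had 1 library. For the same reason no library could be left out, and no other scaling was run, since that needs all genes. With 21 lower and 7 higher members as the reference, at least 2 finger matches left 19 and 7, and the prefix ZNF alone left 18 and 7. A mean of at least 0.5 RPKM left 13 and 2, and at least 20 reads over both libraries left 13 and 4. Intervals that exclude no change left 14 and 3, beside 367 and 236 of the 745 listed protein-coding genes with whole reads. Of the members with a drop of over 2-fold in log2(RPKM + 1), of which there was 1, a pseudocount of 0.1 RPKM gave 18. A pseudocount of 5 RPKM or a 4-fold limit gave 0. The higher count of 0 became 4 with 0.1 RPKM. Every listed gene had been selected for a change of over 2-fold, so more genes pass as the pseudocount shrinks. Shares over all listed genes under these minimums and pseudocounts are not given here, so the counts do not set the members apart. The median of -0.47 became -1.06 with 0.1 RPKM, -0.12 with 5 RPKM and -0.58 with a mean of at least 0.5 RPKM. Over the listed protein-coding genes the median of -0.32 became -1.02 with 0.1 RPKM, close to that of the members. A smaller pseudocount moves low genes away from 0 by its construction.

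With 0.1 RPKM the medians of the comparison lists became 0.018 for homeobox genes and 0.26 for the other zinc finger regulators, both of which were close to 0 and negative before (-0.0013 and -0.013). They became -1.38 for basic helix-loop-helix genes, -0.96 for the basic leucine zipper gene, -0.26 for forkhead and SOX genes, -1.06 for nuclear receptors, -1.55 for the ETS, STAT, IRF and related genes and -1.96 for the KLF and SP genes. Among the 21 named genes only ZNF426, ZNF311 and ZNF808 were counted as moved, to -2.23, -2.36 and -1.86 with 0.1 RPKM, and ZNF311 also to -0.11 with 5 RPKM. All of them had 0 knockout reads, so the pseudocount sets their value. Their counting intervals have no lower limit and contain the values with 0.1 RPKM. The number of members at 0 in a library and the median finger numbers kept their values in every alternative run for them. With a median of 24 reads per member, the interval of 11 of the 28 included no change although all had been selected for a change of over 2-fold.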
